A study of Mus musculus with 6 samples.

Results

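The regions described are the 5′ promoter kilobases of L1Md_T elements: the first 1000 nt, counted from the 5′ end, of every copy annotated as L1Md_T in 6 small RNA-seq libraries of mouse embryonic stem cells (ESCs). A read belonged to a region when its end nearer to the 5′ end of the copy lay less than 1000 nt from it, and 1 copy on chromosome 13 was left out by the rule. This gave 4897 regions of the 13686 L1 copies in the data, where a copy is listed once any library holds a read in it. The copies spanned 5000 to 13492 bp (median 6080 bp), with 2227 on the plus and 2670 on the minus strand. The regions held 10874 reads, out of 29872 reads in these copies and 393511 reads listed for all L1 copies (2.76%).

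All libraries came from E14 cells, an ESC line of 129/Ola background grown without feeder cells in serum and LIF, after infection with lentivirus carrying a pLKO.1 short hairpin RNA vector. The conditions were a non-targeting hairpin (shScr), a hairpin against Tet1 (shTet1) and a hairpin against Tet2 (shTet2), with 2 libraries each. The labels give selection in all conditions with 1 µg/ml puromycin from 24 h after infection and collection 3 days into selection, whereas the methods of the study give another dose and range of days. No gene was measured in these data, so the depletion of Tet1 or Tet2 cannot be checked in them. The listed reads ranged from 11566 to 128715 per library, the sequencing depth of the whole libraries was not analysed here, and nothing says whether the libraries of a condition came from separate cultures.

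L1 elements are retrotransposons that copy themselves through an RNA intermediate. In the mouse, the 5′ end of a young element is built of tandem repeats called monomers, which act as its promoter and are rich in CpG, the dinucleotide that is methylated to silence the element and that TET enzymes oxidise. Small RNAs of the sense strand can come from the element's own transcript, and those of the antisense strand need transcription in the opposite direction. Dicer cuts double-stranded RNA into pieces close to the size of a microRNA, and Piwi-bound RNAs are somewhat longer and often begin with a U.

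The primer pair with which the study assayed L1Tf, the young L1Md_T group, marks the monomer, and both primers are shown here because they place the small RNAs on it. Of the 4897 regions, 2681 (54.7%) held the 18 nt of the forward primer with at most 2 mismatches, 1668 of them without a mismatch, and 1831 held it at 2 or more places, up to 5. Of 3735 gaps between neighbouring matches, 3332 (89.2%) measured 212 nt, the length of 1 monomer. The primer pair bounded 102 nt in 2049 of 2141 cases. The third sequence is 30 nt of the monomer, read from base 9 of the forward primer and found unchanged in 1532 regions. Its capitals mark GCCATNTT, which on the antisense strand reads AANATGGC, the core that the transcription factor YY1 is known to bind.
L1Tf_F: gcctaagccacagcagca
L1Tf_R: gctgtcaggttctctggcg
monomer stretch: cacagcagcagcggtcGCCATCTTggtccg

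Searched as AANATGGC on both strands, this core was present in 3492 of the 4897 regions (71.3%), in 7.70% of the stretches from 3000 to 4000 nt of the same copies and in 8.05% of the first 1000 nt of 3092 L1Md_A copies, the other large young family. In the first 300 nt it was present in 65.1% of L1Md_T copies, against 6.05% of 32851 gene promoters of the same length from RefSeq (GRCm38.p6). Of its occurrences in the regions, 8247 read AANATGGC on the antisense strand and 23 on the sense strand. A match of letters is a description and not a site. The regions held a median of 29 CpG, against 7.96 per 1000 nt in the rest of the copy, and were richer than the rest in 4796 copies. Regions with the primer sequence held a median of 35 CpG and those without it 22.

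Most of the promoter small RNAs came from sequence shared by many copies. For each read, the mm9 sequence at its place was split into words of 15 nt, and a read whose median word was carried by at least 5 other L1 copies is called multicopy below. This applied to 9067 of the 10874 reads, from 76.2% to 91.7% of a library. A read that fits many places equally well was put at 1 of them at random by the alignment, so the family, strand and position of a multicopy read are informative and its copy is not. The remaining reads were concentrated in a few copies, and values are given with and without them.

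The read sequences that stood out on each strand were of different kinds. The most frequent antisense sequences below, ranked by their mean share of the promoter reads over the 6 libraries, are shown because 4 of the 5 are multicopy and 3 of these lie in the monomer stretch or the primer site above. Capitals mark the AANATGGC core.
antisense read 1: gtggagcagaagggc
antisense read 2: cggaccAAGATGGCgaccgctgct
antisense read 3: accAAGATGGCgaccgctg
antisense read 4: tgctgctgtggcttaggc
antisense read 5: acagattctctcctctgag

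Antisense reads 2 to 5 had 4156, 7628, 4110 and 3813 exact matches in the mm9 genome, of which 3491, 6117, 3311 and 2452 lay in the 4897 regions. Antisense reads 2 and 3 are the reverse complement of parts of the monomer stretch, and antisense read 4 is the reverse complement of the whole forward primer. Antisense read 2, of 24 nt, was counted 9 and 13 times for shScr, 1 and 7 times for shTet1, and 7 and 4 times for shTet2. Antisense read 3, of 19 nt, was counted 0 and 53 times for shScr, 0 and 4 times for shTet1, and 1 and 3 times for shTet2. In each condition the second replicate held more of the 19-nt sequence than the first. Antisense read 1 was of the other kind, with 29 exact places in the genome, of which 3 lie in L1 copies, and 3 copies receiving its 61 reads.

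The most frequent sense sequences were 15 to 17 nt long, and none was multicopy. They are shown because they were placed in the copies with the most reads, and the capital in sense reads 1 and 5 marks the base at which the read departs from mm9.
sense read 1: tccggggctgcacgCgt
sense read 2: caggatcacagaaaaag
sense read 3: gccggcgggagccct
sense read 4: aggatcacagaaaaag
sense read 5: ccggggctgcacgCgt

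Sense reads 1 and 5 overlap and had no exact match anywhere in mm9. Counted from 1 at the 5′ end, with the base of mm9 first, they carry G15C and G14C relative to the place they were given, and all 375 and 128 of them were put in a single copy on chromosome 10. Sense read 1 was counted 168 and 4 times for shScr, 22 and 0 times for shTet1, and 181 and 0 times for shTet2. It was abundant in the first replicate of every condition and nearly missing from the second. Sense read 2 was counted 77 and 113 times for shScr, 4 and 17 for shTet1, and 20 and 14 for shTet2, all in a copy on chromosome 6. It has 25 exact places in the genome, of which 2 lie in L1 copies and 1 in an L1Md_T copy, so the data list it in no other of the 4897 regions by construction. The 6 of these 10 sequences that were not multicopy made up 14.1% and 6.04% of the promoter reads for shScr, 8.99% and 4.68% for shTet1, and 14.5% and 3.70% for shTet2. Whether the reads of these 6 sequences come from L1 copies at all was not tested.

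Promoter reads made up 33.6% and 36.4% of all L1Md_T reads for shScr, 45.6% and 37.1% for shTet1, and 38.0% and 38.4% for shTet2. The 95% Wilson intervals were widest for the first shTet1 library, from 42.8% to 48.4% on 1195 reads, and narrowest for the first shScr library, from 32.7% to 34.6% on 9528 reads. These intervals cover counting error only, since reads copied by PCR were not marked. Every library with a hairpin against Tet1 or Tet2 lay above both shScr libraries. For shTet2 this did not hold without the most frequent promoter read sequence, at 36.2% and 38.4% against 32.5% and 36.3% for shScr. With all reads, the mean was 6.37 percentage points higher in shTet1 (41.4% ± 5.99 against 35.0% ± 1.92, SD, n = 2 each; exact two-sided permutation p = 0.333). It was 3.19 points higher in shTet2 (38.2% ± 0.309, SD, n = 2; exact two-sided permutation p = 0.333). With 2 libraries against 2, 0.333 is the smallest p this test allows, and over the 12 such comparisons made for the promoter every adjusted p was 1.

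Counted on multicopy reads, the promoter share was 29.5% and 34.4% for shScr, 42.4% and 35.9% for shTet1, and 33.4% and 37.4% for shTet2. The shTet1 libraries again lay above both shScr libraries, by 7.19 points in the mean. The mean of shTet2 was 3.41 points above that of shScr, with overlapping libraries, and within replicate numbers the differences were 3.85 and 2.97 points. The excess in shTet1 came mostly from its first replicate: without that library the difference in all reads was 2.14 points. As a share of all listed L1 reads, the promoter gave 2.56% and 2.53% for shScr, 4.71% and 2.37% for shTet1, and 3.60% and 2.32% for shTet2. On that scale the first replicates of the knockdowns lay above shScr and the second replicates below it. The chromosome 13 copy counts among those listed reads. Without it, the promoter gave 7.92% and 8.62% for shScr, 12.4% and 8.69% for shTet1, and 8.41% and 8.89% for shTet2. There both shTet1 libraries lay above both shScr libraries, and the shTet2 and shScr libraries overlapped. Within replicate numbers, each knockdown library then lay above shScr.

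**Figure D1:**
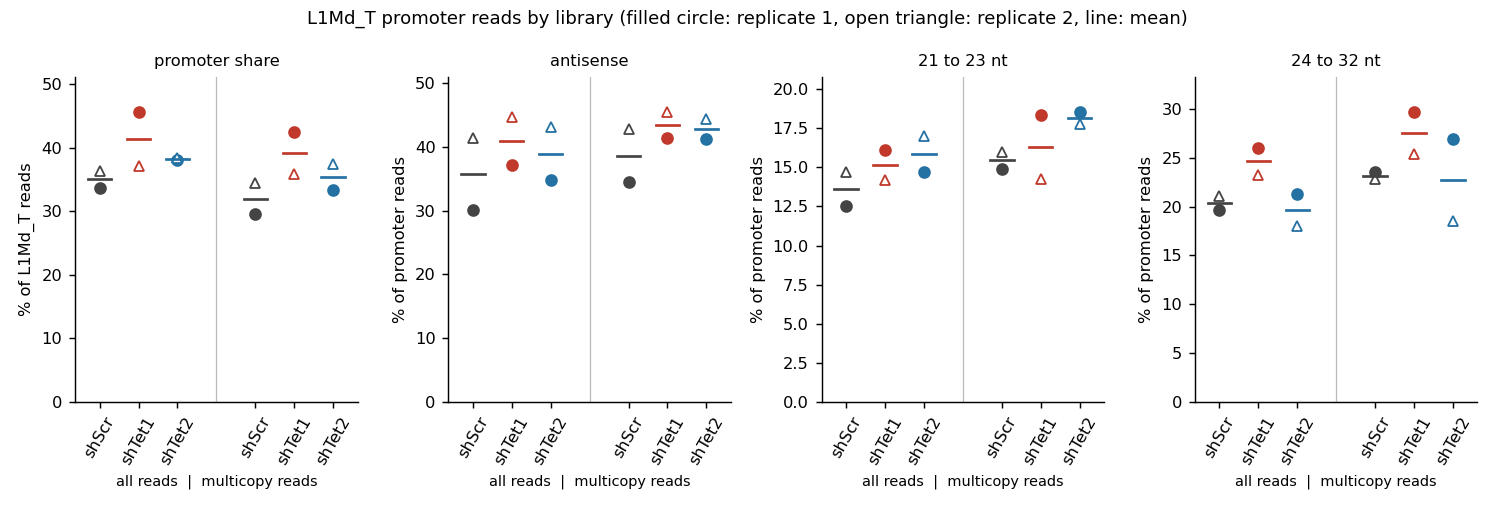
Promoter share of L1Md_T reads, antisense share, and shares of 21 to 23 nt and of 24 to 32 nt, in percent, for each library by condition, from all reads (left in each panel) and multicopy reads (right), with replicate 1 as filled circles, replicate 2 as open triangles and the mean of the 2 libraries as a line. The promoter share of shTet1 lies above both shScr libraries in both sets of reads, and the antisense share of replicate 2 lies above that of replicate 1 in every condition.

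The promoter stood apart from the rest of the element by its share of antisense reads. Antisense reads made up 38.6% ± 5.54 of the promoter reads (SD over 6 libraries) and 23.9% ± 3.55 of the reads in the rest of the same copies, a difference found in 6 of 6 libraries (exact two-sided paired permutation p = 0.0312, adjusted p = 0.0481 over 20 such comparisons). In the first 1000 nt of L1Md_A copies the antisense share was 16.5% ± 2.71, below the L1Md_T promoter in 6 of 6 libraries with the same p and adjusted p. With multicopy reads the 3 values were 41.6% ± 3.87, 22.0% ± 2.82 and 15.4% ± 3.10, and the promoter was again highest in 6 of 6 libraries. The smallest p that 6 pairs allow is 0.0312. Each comparison enters the family of 20 once with all reads and once with multicopy reads, so the adjusted p depends on how the family was made up. The test also treats the 6 libraries as independent, although their reads differed by replicate number. Since conditions were pooled here, these comparisons concern the segments of the element and not the hairpins. They take reads of every length, and the segments differ in read length, as given below. The antisense share was not compared between segments within a range of lengths.

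By library, the antisense share of the promoter reads was 30.1% and 41.4% for shScr, 37.2% and 44.8% for shTet1, and 34.9% and 43.1% for shTet2. The groups overlapped. The mean was 5.27 points higher in shTet1 than in shScr (41.0% ± 5.33 against 35.7% ± 7.94, SD, n = 2 each; exact two-sided permutation p = 0.667). It was 3.24 points higher in shTet2 (39.0% ± 5.81, SD, n = 2; exact two-sided permutation p = 0.667). Within a replicate number, shTet1 exceeded shScr by 7.12 and 3.43 points and shTet2 exceeded it by 4.74 and 1.73 points. The difference between replicate numbers within shScr, at 41.4% against 30.1%, was larger than any of these.

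Antisense reads were more frequent where the region held a match to the forward primer. In regions with the forward primer sequence, 46.3% ± 3.80 of the reads were antisense, and in regions without it 25.3% ± 6.58 (SD over 6 libraries), higher in 6 of 6 libraries. With multicopy reads the shares were 46.3% ± 3.71 and 29.7% ± 4.55, again higher in 6 of 6. Regions with the primer sequence were set apart after the data were seen. A place that matches antisense read 4 exactly also holds the primer sequence by construction. For both reasons no test is given, although both comparisons count in the family of 20 above. By library, the antisense share of all reads in regions with the primer sequence was 39.3% and 46.3% for shScr, 46.0% and 50.4% for shTet1, and 47.1% and 48.7% for shTet2. Regions with the primer sequence also held more reads, 2.53 per copy against 1.84, and 85.6% of them had a read against 64.2%. For multicopy reads alone these were 2.43 and 1.15 reads per copy. The multicopy class is itself defined by sharing among copies, and the monomer is shared.

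Within the monomer the 5′ ends of antisense reads were not spread evenly. For multicopy reads in regions with the primer sequence, the distance from the primer match to the 5′ end of the read was taken modulo 212 nt. Of 2683 antisense reads, 47.1% and 60.2% for shScr, 51.1% and 63.5% for shTet1, and 48.5% and 56.6% for shTet2 began at offsets 0 to 49, a stretch that an even spread would give 23.6%. The 10-nt bin with the highest mean over libraries was offsets 30 to 39, with 17.02% to 29.9% of the antisense reads of a library. The 2893 sense reads were less concentrated there, with 21.5% to 41.4% at offsets 0 to 49 and their highest bins, by the mean over libraries, at 50 to 59 and 40 to 49. The window of 0 to 49 was chosen after the profile was seen, so no test is given. The core AANATGGC was inside 16.8% and 20.5% of the multicopy antisense reads for shScr, 24.6% and 27.4% for shTet1, and 24.8% and 19.1% for shTet2, 769 reads in all. It was inside 0 of the multicopy sense reads, which follows from the strand of the core in the regions.

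**Figure D2:**
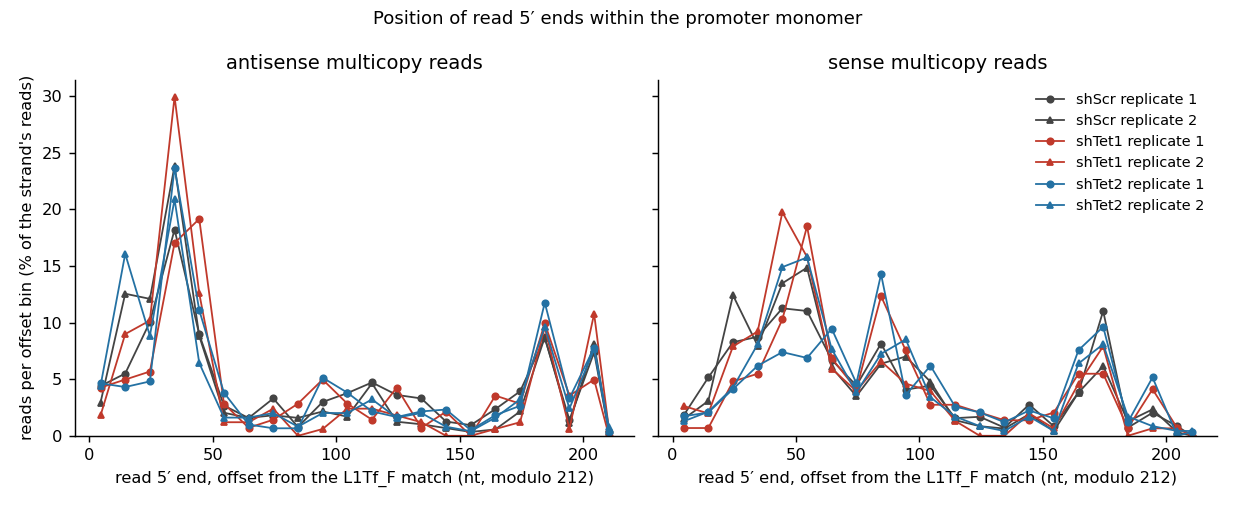
Share of the multicopy antisense (left) and sense (right) reads of each library, in percent, by the offset of the read's 5′ end from the L1Tf_F match in nt modulo 212, in bins of 10 nt with the last bin covering 210 to 211. All 6 libraries have their antisense reads heaped between offsets 0 and 49, and all 6 share the smaller rise near 180 to 189.

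Antisense reads lay nearer to the 5′ end of the copy than sense reads. Of antisense reads 71.0% ± 2.66 lay in the first 500 nt, and of sense reads 60.7% ± 5.75 (SD over 6 libraries), with the antisense share higher in 6 of 6 libraries (exact two-sided paired permutation p = 0.0312, adjusted p = 0.0481). With multicopy reads the shares were 69.9% ± 2.87 and 59.1% ± 5.19. The antisense 100-nt bin with the most reads lay at 100 to 199 nt and held 686 reads, from 4.80% to 8.40% of a library's promoter reads. The last antisense bin, 900 to 999 nt, held 107. Sense reads did not thin steadily: their multicopy bins at 700 to 799, 800 to 899 and 900 to 999 nt held 349, 466 and 508 reads. Of the multicopy sense reads of a library, from 50.2% (first shScr library) to 65.1% (second shTet2 library) lay in the first 500 nt.

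The sense bin with the most reads lay at 200 to 299 nt and held 1354 reads, 462 and 269 for shScr, 72 and 39 for shTet1, and 457 and 55 for shTet2. As a share of the promoter reads this was 14.4% and 8.25% for shScr, 13.2% and 7.01% for shTet1, and 18.3% and 6.79% for shTet2, higher in the first replicate of each condition. Sense reads 1 and 5, at 293 and 294 nt, fall in this bin. With multicopy reads the bin held 692 reads, its share of the promoter reads ranged from 6.86% to 8.55%, and the sense bin with the most reads was the first, 0 to 99 nt, with 799 reads.

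**Figure D3:**
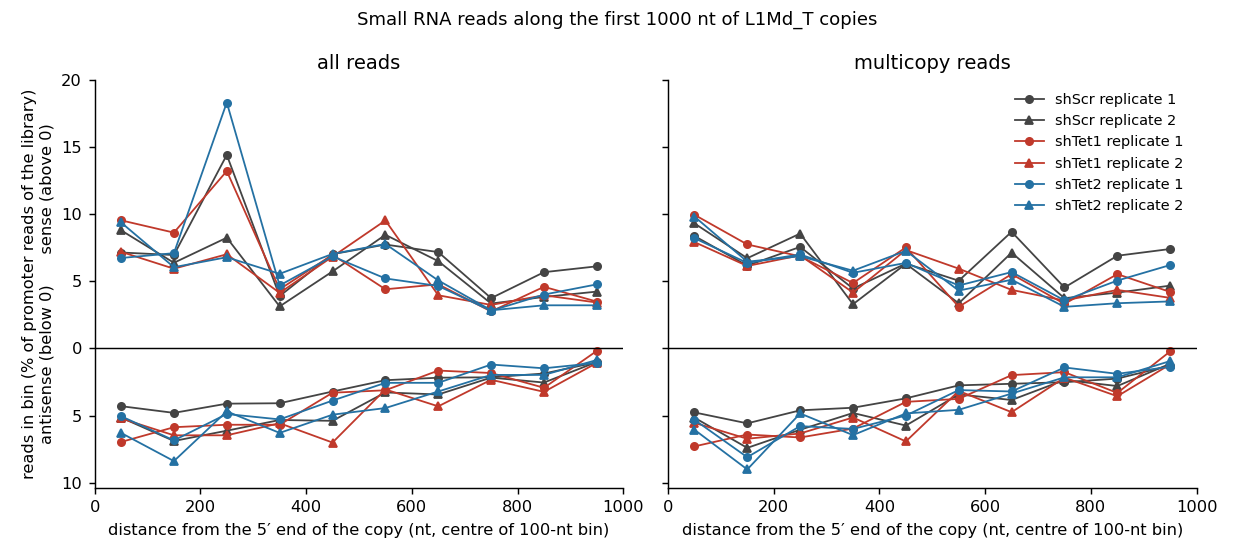
Reads per 100-nt bin as percent of the promoter reads of each library, against the distance from the 5′ end of the copy in nt, with sense reads drawn above 0 and antisense reads below, for all reads (left) and multicopy reads (right). The sense peak at 200 to 299 nt, up to 18.3%, is highest in the first replicates with all reads, and with multicopy reads this bin holds 6.86% to 8.55%.

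Between conditions, reads were tallied per 100-nt bin and strand for every L1 class and fitted over all 6 libraries with limma voom. Of 360 bins tested, 0 passed at an adjusted p under 0.05 in shTet1 and 0 in shTet2 (0% of bins in both comparisons), with 14 and 23 at an unadjusted p under 0.05. All 20 promoter bins were tested, and 0 passed. In shTet1 the estimate was above 0 in 9 of 10 antisense and 8 of 10 sense promoter bins, with a median over the 20 of 0.35 on the log2 scale beside 0.03 over all bins. In shTet2 it was above 0 in 8 of 10 antisense and 5 of 10 sense bins, with a median of 0.27 beside 0.05. Both comparisons share the shScr libraries. The bins of a condition come from the same 2 libraries, so the bins above 0 are not independent results. Of the promoter bins, 0 in shTet1 and 2 in shTet2 reached an unadjusted p under 0.05.

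The antisense bin at 100 to 199 nt was counted 154 and 225 times for shScr, 32 and 36 times for shTet1, and 171 and 68 times for shTet2. Its log2 fold change was 0.39 ± 0.31 in shTet1 and 0.65 ± 0.27 in shTet2 (SE; limma adjusted p = 1.00 and 0.615). The sense bin at 200 to 299 nt had a log2 fold change of 0.09 ± 0.59 and 0.43 ± 0.54 (SE; limma adjusted p = 1.00 and 0.772). The antisense bin in shTet2 had an unadjusted p of 0.0449, and neither bin passed after adjustment over the 360 bins.

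Fitted per class, segment and strand, the antisense promoter reads numbered 966 and 1349 for shScr, 203 and 249 for shTet1, and 870 and 349 for shTet2. Relative to all L1 tallies, their log2 fold change was 0.45 ± 0.27 in shTet1 and 0.10 ± 0.24 in shTet2 (SE; limma adjusted p = 0.962 and 0.936). The sense promoter reads numbered 2240 and 1913 for shScr, 342 and 307 for shTet1, and 1625 and 461 for shTet2. Their log2 fold change was 0.11 ± 0.26 in shTet1 and -0.07 ± 0.23 in shTet2 (SE; limma adjusted p = 0.968 and 0.978), and its sign changed with the scaling or the reads used. Of 56 tallies tested, 0 passed in either comparison (0%), with 0 in shTet1 and 2 in shTet2 at an unadjusted p under 0.05. These fits measure the promoter against the other listed L1 reads and not against all small RNAs of the cell.

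Promoter reads were short. Their mean length was 24.6 nt ± 1.62, against 33.2 nt ± 3.15 in the rest of the copy and 27.0 nt ± 2.60 in the L1Md_A promoter, and it was the lowest of the 3 in 6 of 6 libraries (SD; for both pairs exact two-sided paired permutation p = 0.0312, adjusted p = 0.0481). With multicopy reads it stayed below the rest of the copy in 6 of 6 libraries, and was below the L1Md_A promoter in 5 of 6 (25.9 nt against 27.4 nt; exact two-sided paired permutation p = 0.0938, adjusted p = 0.117). Reads of 21 to 23 nt, the size range of Dicer products, made up 14.9% ± 1.56 of the promoter reads and 8.49% ± 1.77 of the rest of the copy, higher in 6 of 6 libraries with the same p and adjusted p as the mean length. In the L1Md_A promoter they made up 14.6% ± 0.947, and the difference of 0.280 points was within the spread over libraries (exact two-sided paired permutation p = 0.812). With multicopy reads it was 2.02 points, 16.6% against 14.6%, and the L1Md_T promoter was higher in 5 of 6 libraries (exact two-sided paired permutation p = 0.0625, adjusted p = 0.0893). Reads of 24 to 32 nt, the range that holds Piwi-bound RNAs, made up 21.6% ± 2.80 of the promoter and 21.8% ± 1.48 of the rest (exact two-sided paired permutation p = 0.875). For multicopy reads these were 24.5% and 22.6%, higher in the promoter in 5 of 6 libraries (exact two-sided paired permutation p = 0.281, adjusted p = 0.331). Reads over 32 nt made up 10.8% to 28.6% of a library's promoter reads and 23.2% to 51.7% of its reads in the rest of the copy. Their share was lower in the promoter in every library, and they enter the mean lengths and size-class shares above. A size class alone does not show which pathway made a read.

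The share of 21 to 23 nt was 12.5% and 14.7% for shScr, 16.1% and 14.2% for shTet1, and 14.7% and 17.04% for shTet2. It overlapped in shTet1, with a mean 1.55 points higher (15.2% ± 1.37 against 13.6% ± 1.54, SD, n = 2 each; exact two-sided permutation p = 0.667). The mean was 2.25 points higher in shTet2 (15.9% ± 1.65, SD, n = 2; exact two-sided permutation p = 0.667), where with multicopy reads both libraries, at 18.6% and 17.8%, lay above both of shScr, at 14.9% and 15.997% (exact two-sided permutation p = 0.333).

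The share of 24 to 32 nt was 19.7% and 21.1% for shScr, 26.1% and 23.2% for shTet1, and 21.3% and 18.02% for shTet2. Both shTet1 libraries lay above both shScr libraries, by 4.23 points in the mean (24.6% ± 2.02 against 20.4% ± 1.02, SD, n = 2 each; exact two-sided permutation p = 0.333). With multicopy reads the difference was 4.32 points, and with reads of 18 to 32 nt as the whole it was 0.158 points. The mean of shTet2 was 0.748 points below that of shScr (19.7% ± 2.30, SD, n = 2; exact two-sided permutation p = 1). Among multicopy reads of 24 to 32 nt, from 19.4% to 29.2% of the antisense and from 17.9% to 23.8% of the sense reads of a library began with T, the DNA letter for U.

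Lengths also divided the libraries by replicate number. Of antisense promoter reads, those of 18 to 19 nt made up 12.5% and 30.4% for shScr, 13.8% and 29.3% for shTet1, and 13.6% and 30.4% for shTet2. In sense reads they made up 7.28% and 16.8%, 14.9% and 20.8%, and 9.85% and 18.2%. Reads of 15 to 17 nt went the other way, with 26.8% and 19.8% of the promoter reads for shScr, 29.5% and 16.5% for shTet1, and 34.9% and 18.02% for shTet2. The labels say nothing of what a replicate number stands for, and whether it marks a shared preparation was not tested.

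**Figure D4:**
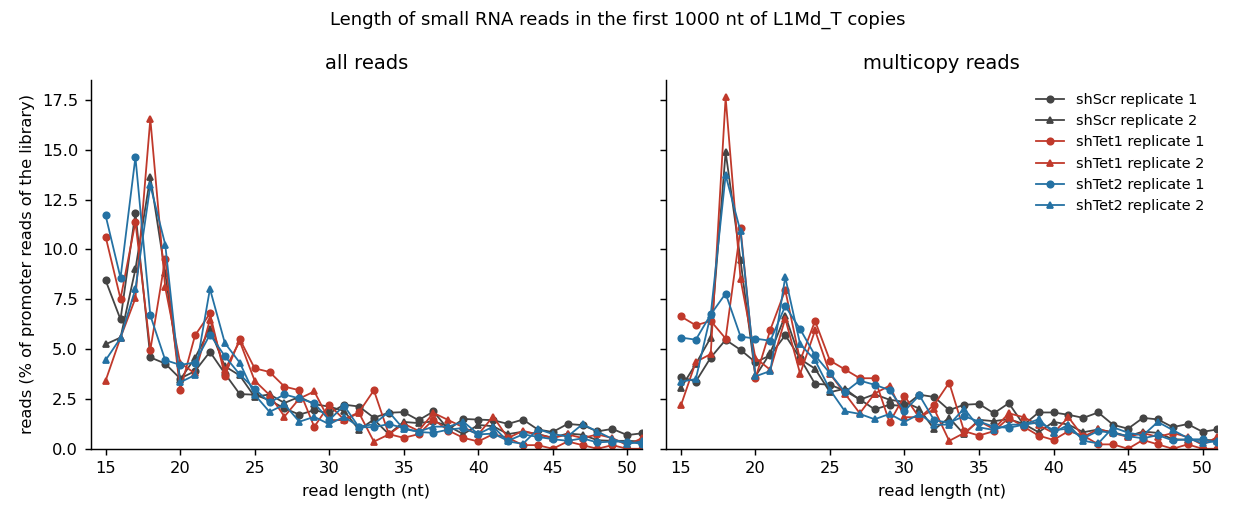
Read length in nt, drawn from 15 to 50 nt, against the percent of the promoter reads of each library, for all reads (left) and multicopy reads (right), with replicate 1 as circles and replicate 2 as triangles. The 3 second replicates peak at 18 nt, the first replicates do not with all reads, and all 6 libraries have a lower rise at 22 nt.

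The reads were spread over many copies. Of the 4897 regions, 3719 (75.9%) held a promoter read in at least 1 library, 1178 held none, and 1307 held a single one over all libraries. Only 23 regions held more than 10 reads, and 8 had a read in every library. Copies with a promoter read numbered 1933 and 2054 for shScr, 458 and 491 for shTet1, and 1560 and 693 for shTet2, which followed the number of reads. Drawn down to 545 promoter reads, the count of the smallest library, the libraries were expected to reach 439 and 475 copies for shScr, 458 and 482 for shTet1, and 425 and 484 for shTet2. The means were 457 ± 25.8, 470 ± 17.03 and 454 ± 42.3 (SD, n = 2 each; exact two-sided permutation p = 0.667 for shTet1 and 1 for shTet2 against shScr).

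Counted on multicopy reads, the libraries reached similar numbers of copies. At 452 reads, the expected number of copies was 425 and 423 for shScr, 422 and 419 for shTet1, and 425 and 420 for shTet2. No copy held more than 6 multicopy reads in any library, and 17 over all 6. Since the alignment places such reads at random among equal places, this evenness is a property of the processing as well as of the RNA, and the data cannot tell these apart.

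**Figure D5:**
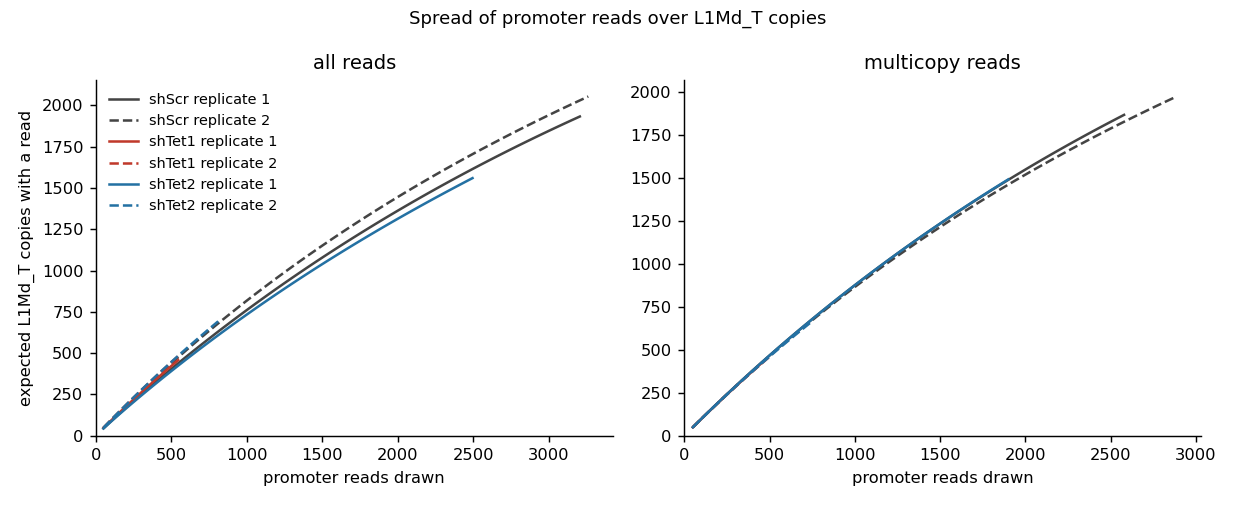
Expected number of L1Md_T copies with a promoter read against the number of promoter reads drawn, for each library, from all reads (left) and multicopy reads (right), with replicate 1 as solid and replicate 2 as dashed lines. With all reads the first replicates of shScr and shTet2 run below the second replicate of shScr, and with multicopy reads the curves lie nearly on each other, at 419 to 425 copies for 452 reads.

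The 5 copies with the highest mean share of promoter reads held short reads, nearly all from the sense strand, and together took 14.9% and 5.82% of the promoter reads for shScr, 10.6% and 4.50% for shTet1, and 17.2% and 3.83% for shTet2. The first, at chr10:105530250-105531249 on the minus strand of mm9 and in no annotated gene, held 254 and 8 reads for shScr, 32 and 1 for shTet1, and 260 and 1 for shTet2. All 556 were sense, 552 were of 15 to 17 nt, 0 were multicopy, and 67.4% were sense read 1. The second, at chr6:18273741-18274740 on the plus strand and in no annotated gene, held 115 and 176 reads for shScr, 10 and 23 for shTet1, and 38 and 29 for shTet2, again all sense and all of 15 to 17 nt. It was the exception among the 5, with a higher share of the promoter reads in the second replicate of every condition. The shares were 3.59% and 5.40% for shScr, 1.83% and 4.14% for shTet1, and 1.52% and 3.58% for shTet2.

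The third, at chr14:37246211-37247210 on the minus strand, held 54 and 6 reads for shScr, 9 and 0 for shTet1, and 47 and 0 for shTet2. The fourth, at chr16:62664043-62665042 on the plus strand, held 52 and 0, 2 and 1, and 42 and 0. Neither lies in an annotated gene. The fifth, at chr4:20431107-20432106 on the minus strand, lies in an intron of Nkain3 and on its strand, and held 2 and 0 reads for shScr, 5 and 0 for shTet1, and 41 and 1 for shTet2. Each of the 3 was carried by 1 sequence, which gave 91.4%, 95.9% and 87.8% of its reads, and each held at most 1 multicopy read. In the copies on chromosomes 14 and 16 this was the same sequence, sense read 3, with 106 and 93 of its 199 reads, and since it matches both places and 4 in the genome exactly, the data cannot tell from which of them its reads came.

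Of the copies that the study assayed one by one, HL1-2, HL1-6 and HL1-7 are among the 4897. The region of HL1-2, at chr2:125236373-125237372 in an intron of Fbn1, held 1 and 2 reads in shScr and 0 in the other 4 libraries. That of HL1-6, at chr5:70820451-70821450, held 1 and 1 reads in shScr and 0 in the others. That of HL1-7, at chr6:107900678-107901677, held 0 and 1 reads for shScr, 0 and 1 for shTet1, and 1 and 0 for shTet2. For this last copy the study names L1A monomers, and for the others L1Tf monomers. The annotation as L1Md_T therefore does not settle the monomer type of that copy. All 3 copies lie on the minus strand, HL1-6 and HL1-7 in no annotated gene. All these reads were multicopy, so no level can be set for a single copy at this depth.

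Most regions lay outside protein-coding genes. Of the 4897, 3883 (79.3%) lay in no protein-coding gene of GENCODE, 625 (12.8%) in a gene of the opposite strand and 386 (7.88%) in a gene of the same strand. A promoter read was found in 74.4%, 79.0% and 86.5% of these. Their shares of the promoter reads were 78.6%, 12.1% and 9.24%, and of the multicopy reads 76.5%, 13.7% and 9.73%. The X chromosome held 9.86% of the regions, 9.47% of the promoter reads and 10.6% of the multicopy reads.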

How the data were processed

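Small RNA was sequenced from 6 libraries, 2 for each of 3 conditions, as the titles of the samples give them. Before deposit, the authors used Trim Galore 0.3.3 (minimum length 15 nt) and Bowtie2 2.1.0 on mm9, where a read with several equal hits goes to a random one. Each line of a deposited file is 1 read with its coordinates, followed by those of its L1 copy with class and strand. No feature carries a measured value, so reads were tallied. The 4897 regions, the lists and the comparisons were chosen with earlier results of these data known.

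Tallies that reached 10 reads in 2 or more libraries were fitted with limma 3.58.1 (voom, R 4.3.3) over all 6 libraries with TMM factors computed by formula and Benjamini-Hochberg adjustment at 0.05, and the fit was tested on simulated data. Single values were compared with exact permutation tests (scipy 1.17.1), and intervals are Wilson at 95%. Tables were made with Python 3.11.15 and pandas 2.3.3. Named by rule were the 5 copies, and the 5 sequences per strand, with the highest mean share of promoter reads, the bin with the most reads per strand, the copies the study assayed, and its L1Tf primers. The multicopy class, and regions with the primer sequence taken alone, were added after seeing the data. Other alternatives were other scaling and filters, other windows and lengths, reads counted once, and each replicate left out. Sequences come from the files, the study's primer list and the NCBIM37 genome, and gene context from GENCODE.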

Additional observations from a re-analysis of the deposited data

How the results depend on the processing

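Of the 12 differences in single values, recomputed 162 times, 155 recomputed values stayed within 1 SD of the reported one. With 2 libraries per condition, leaving out 1 library or using the replicate number as a block could not exceed 1 SD, by arithmetic. Those values therefore say nothing on stability, and the 7 that moved further came from the other settings. The shTet2 excess in the promoter share of L1Md_T reads was 2.75 points with reads of 18 to 32 nt and 2.23 points for the first 2000 nt. It was 2.92 points without the most frequent promoter read sequence. In each of these settings the shTet2 and shScr libraries overlapped. For the first 500 nt and for copies of at least 6000 bp it was 4.58 and 3.89 points, without overlap. It was 5.48 points with reads alike in position, strand and length counted once, and 6.31 points with each sequence counted once per library, again without overlap. With the first of these, the promoter share of listed reads differed from shScr by -0.964 points in shTet1 and -0.611 points in shTet2, opposite in sign to the value from all reads, and with the second by 0.843 and 0.491 points, of the same sign. With reads of 18 to 32 nt, the share of 21 to 23 nt in shTet1 differed by -1.73 points, and the differences in the share of 24 to 32 nt were 0.158 (shTet1) and -3.87 (shTet2) points. The cause of these shifts was not tested.

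Leaving out 1 library at a time, the differences in percentage points from shScr ranged from 2.14 to 10.6 (shTet1) and 1.83 to 4.54 (shTet2) for the promoter share of L1Md_T reads, from -0.177 to 2.17 and -0.224 to 1.05 for the share of listed reads, from -0.339 to 10.9 and -2.38 to 8.85 for the antisense share, from 0.463 to 2.64 and 1.082 to 3.41 for 21 to 23 nt, and from 2.80 to 5.65 and -2.38 to 0.881 for 24 to 32 nt. For copies at equal depth the ranges were -5.38 to 31.1 and -32.7 to 27.1 copies.

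No promoter bin or promoter tally passed in any limma fit. Without the filter on low tallies, 289 of 1911 bins passed in shTet1 and 2 in shTet2, and 1 class tally in shTet1. With reads counted once, 3 bins and 1 tally passed in shTet1 and 1 tally in shTet2. Leave-one-out counts were 0 to 0 (shTet1) and 0 to 1 (shTet2, 1 without shTet2 replicate 1) for tallies, and 0 to 0 and 0 to 5 (5 without shTet2 replicate 2) for bins.

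The log2 estimate of sense promoter reads in shTet1 changed sign without the filter (-0.058), with reads counted once (-0.079), with multicopy reads (-0.011) and without shTet1 replicate 1 (-0.091). In shTet2 it changed sign with library totals in place of TMM (0.13), without shScr replicate 1 (0.12) and without shTet2 replicate 2 (0.10), and the antisense estimate did so without shScr replicate 1 (-0.091). Over the leave-one-out fits the sense estimate spanned -0.09 to 0.33 (shTet1) and -0.28 to 0.12 (shTet2), and the antisense estimate 0.19 to 0.75 and -0.09 to 0.29.

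With the replicate number as a block, 1 tally passed in shTet2 (adjusted p = 0.0328, not a promoter tally) and 0 bins. For the single values the block leaves the difference of means as it is by arithmetic (6.37 points for the promoter share in shTet1), and the test of 2 pairs cannot reach the threshold. Deviations of same-numbered libraries from their condition means correlated at 0.182 to 0.699 over bins, and the labels do not say that a number marks shared material. Depth limits the shTet1 libraries most, where 3 reads are up to 0.550% of the promoter reads, and the unknown library totals leave the amount of promoter RNA per cell unmeasured.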
